A study of Mus musculus with 24 samples.

Results

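The genes described here are 10 imprinted growth genes, Dlk1, Nnat, Meg3, H19, Igf2, Peg3, Mest, Plagl1, Cdkn1c and Grb10, measured by RNA sequencing of interscapular brown adipose tissue from 24 mice. They were listed by name, because Dlk1 and Nnat had lower values in Th-Cre than in WT libraries, so the differences between genotypes below are a description and carry no test. Of the 10 genes, 8 have a row in the table of 36144 genes and all 8 had enough reads to be tested, among 13129 tested genes. The long noncoding RNAs Meg3 and H19 were not analysed here.

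There were 4 groups of 6 mice aged 6 to 8 months, 3 of them male and 3 female in each group: Th-Cre mice given DCZ, Th-Cre mice given saline, WT mice given DCZ and WT mice given saline, with tissue taken 30 minutes later. Th-Cre mice are labelled B6.129X1- Tht1(cre)Te/Kieg and carry Cre recombinase under control of Th, the tyrosine hydroxylase gene of catecholamine-producing cells, and WT mice are labelled C57Bl/6J. DCZ, deschloroclozapine, is a ligand of designer receptors, and the receptor that it was meant to act on is not given in the sources used here. Every library came from its own mouse, and the total count was 11.9 to 22.9 M per library. The libraries of the 2 genotypes were numbered in separate blocks and the strain labels differ too, so genotype, strain background and library set cannot be told apart.

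Imprinted genes are expressed mainly from the copy inherited from one parent, and the parental copies are told apart by DNA methylation set in the germ line. Many of them act on growth before and shortly after birth, and many are switched down as tissues mature. In adipose tissue Dlk1 is known as a marker of preadipocytes that restrains their differentiation, and Mest as a gene whose expression follows fat mass expansion in mice. The counts used here are sums over both parental copies, so imprinting itself was not measured.

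Brown adipocyte markers were high in every library: the 8 listed markers, Ucp1 among them, summed to 4087 to 6637 counts-per-million (CPM) units in Th-Cre and 6498 to 9328 CPM in WT libraries. Skeletal muscle transcripts were present in 6 of 24 libraries, 2 Th-Cre DCZ, 3 Th-Cre saline and 1 WT saline, and 4 of those 6 were from females. Calls between genotypes, and between sexes over all groups, are given with and without these libraries.

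The promoters of the 3 genes on which the results turn are shown first, as the 300 bases from 250 before to 50 after the start site in RefSeq, build GRCm38.p6, written 5′ to 3′ along the strand of the gene. Capitals mark matches, on either strand, to the Sp1 box GGGCGG, the cyclic AMP response element TGACGTCA, the YY1 core CCATNTT or the TATA box TATAAA. The Dlk1 window is chr12:109452573-109452872 (plus strand), the Nnat window chr2:157559828-157560127 (plus strand) and the Peg3 window chr7:6730370-6730669 (minus strand).
Dlk1: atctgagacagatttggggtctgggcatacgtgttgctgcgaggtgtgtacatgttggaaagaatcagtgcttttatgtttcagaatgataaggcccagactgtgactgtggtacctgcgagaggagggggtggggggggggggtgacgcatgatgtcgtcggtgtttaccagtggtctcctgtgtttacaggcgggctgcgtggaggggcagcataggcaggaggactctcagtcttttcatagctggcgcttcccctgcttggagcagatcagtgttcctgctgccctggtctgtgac
Nnat: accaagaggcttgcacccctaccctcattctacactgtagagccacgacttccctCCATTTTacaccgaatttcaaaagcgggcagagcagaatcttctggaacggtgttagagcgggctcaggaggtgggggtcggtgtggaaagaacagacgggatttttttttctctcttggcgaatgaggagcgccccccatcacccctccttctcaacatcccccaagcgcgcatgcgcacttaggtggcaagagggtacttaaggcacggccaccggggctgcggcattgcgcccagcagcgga
Peg3: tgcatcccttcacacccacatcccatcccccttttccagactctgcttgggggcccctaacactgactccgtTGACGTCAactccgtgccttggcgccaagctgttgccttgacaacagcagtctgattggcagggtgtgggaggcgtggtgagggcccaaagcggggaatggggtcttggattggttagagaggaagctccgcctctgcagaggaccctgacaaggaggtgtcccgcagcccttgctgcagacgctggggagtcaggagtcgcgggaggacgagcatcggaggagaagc
The Dlk1 window held no match and 9 CpG dinucleotides. The Nnat window held 1 YY1 core and 17 CpG, and the Peg3 window 1 cyclic AMP response element and 13 CpG. Over 32851 RefSeq promoter windows of the same length the median was 7 CpG, and 35.7% held the Sp1 box, 1.79% the cyclic AMP response element, 16.1% the YY1 core and 13.6% the TATA box. A match is a run of letters and does not show binding.

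Dlk1 encodes a transmembrane protein with epidermal growth factor-like repeats that is related to Notch ligands, is expressed from the paternal copy, and lies at chr12:109452823-109463336 (GRCm38, plus strand). The lowest, median and highest levels of Dlk1 were 0.447, 0.755 and 1.29 CPM in Th-Cre DCZ libraries and 0.647, 1.0 and 1.54 CPM in Th-Cre saline libraries. They were 1.68, 3.33 and 5.54 CPM in WT DCZ libraries and 1.36, 4.02 and 6.12 CPM in WT saline libraries. Under DCZ every Th-Cre library lay below every WT library, and under saline the lowest WT library, a male, fell within the Th-Cre range. The log2 fold change, Th-Cre minus WT, was -2.22 ± 0.36 (SE) under DCZ and -1.92 ± 0.35 under saline. Dlk1 was a low count gene, with 8 to 107 reads per library.

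Within each sex the Dlk1 difference was also negative, -1.61 ± 0.31 in males and -2.44 ± 0.31 in females (log2, SE, 6 against 6 mice). Female mice of the 2 genotypes did not overlap, since the highest Th-Cre female had 1.14 CPM and the lowest WT female 1.68 CPM. Male mice overlapped, with up to 1.54 CPM in Th-Cre and down to 1.36 CPM in WT. In bulk tissue, fewer cells that express a gene and less RNA of it per cell cannot be told apart. Preadipocyte and fibroblast markers as a whole had a summed level of 227 to 416 CPM in Th-Cre and 263 to 477 CPM in WT libraries. Their part in the Dlk1 difference was not tested.

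Nnat, neuronatin, encodes a small proteolipid of the endoplasmic reticulum, is expressed from the paternal copy, and lies at chr2:157560078-157562522 (GRCm38, plus strand), wholly inside Blcap, which is on the other strand. In males Nnat had 1.23, 1.92 and 4.55 CPM in Th-Cre DCZ libraries, 7.31, 12.7 and 15 CPM in Th-Cre saline libraries, 6.08, 11.2 and 17.1 CPM in WT DCZ libraries and 14.1, 19.6 and 26.5 CPM in WT saline libraries. In females it had 0.612, 1.04 and 2.05 CPM in Th-Cre DCZ libraries, 0.446, 0.623 and 0.843 CPM in Th-Cre saline libraries, 6.57, 7.79 and 18.3 CPM in WT DCZ libraries and 4.92, 11.5 and 12.9 CPM in WT saline libraries. All 6 Th-Cre females thus lay below all 6 WT females, while Th-Cre males overlapped with WT males because those given saline had high values. The log2 fold change, Th-Cre minus WT, was -2.71 ± 0.54 under DCZ and -1.56 ± 0.48 under saline, and it was -1.44 ± 0.33 in males and -3.50 ± 0.42 in females (SE).

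Reads of Nnat could be shared with Blcap, a gene whose protein was found through its loss in bladder cancer, since the use of strand in the counting is not given in the sources used here. Blcap had 51.9 ± 7.7 CPM in Th-Cre DCZ, 50.3 ± 5.3 in Th-Cre saline, 47.6 ± 5.6 in WT DCZ and 45.2 ± 6.9 in WT saline libraries (SD, n = 6 each). Its difference between genotypes did not pass edgeR's quasi-likelihood test, with an adjusted p of 0.358 under DCZ and 0.165 under saline (Benjamini-Hochberg over all tested genes). The mean level of Blcap was higher in Th-Cre than in WT libraries under each injection, the sign opposite to that of Nnat. Whether reads were shared between these genes was not tested.

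Of the other paternally expressed members, Igf2 encodes a growth factor that acts mainly before birth, and it lies at chr7:142650766-142666816 (GRCm38, minus strand). Igf2 had 8.21 to 11.6 CPM (median 10.6) in Th-Cre DCZ, 7.44 to 14.7 CPM (median 9.42) in Th-Cre saline, 10.4 to 14.7 CPM (median 12.8) in WT DCZ and 12.1 to 17.6 CPM (median 14.3) in WT saline libraries. The genotypes overlapped under both injections, with differences of -0.32 ± 0.13 under DCZ and -0.56 ± 0.13 under saline (log2, SE). Igf2 is 225.9 kb from Th on chromosome 7, and Cdkn1c is 527.2 kb from it, so these 2 genes are neighbours of the locus named in the Th-Cre label.

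Peg3 encodes a zinc finger protein and lies at chr7:6703892-6730431 (GRCm38, minus strand), 136.2 Mb from Th. It had 7.51 to 56.0 CPM in Th-Cre DCZ, 17.5 to 35.0 CPM in Th-Cre saline, 26.9 to 68.0 CPM in WT DCZ and 30.5 to 61.5 CPM in WT saline libraries. The genotypes overlapped, with differences of -0.62 ± 0.27 under DCZ and -0.77 ± 0.27 under saline (log2, SE). Mest encodes a protein of the alpha/beta hydrolase fold and lies at chr6:30723547-30748465 (plus strand). It had only 6 to 22 reads per library and differences of -0.72 ± 0.31 under DCZ and -0.61 ± 0.31 under saline. Plagl1, a zinc finger gene that in mice controls other imprinted genes, lies at chr10:13060504-13131694 (plus strand) and had 5 to 37 reads per library. Its difference was positive under DCZ, 0.36 ± 0.37, and negative under saline, -0.16 ± 0.38, each within 1 SE of 0. With single libraries left out it ran from 0.15 to 0.90 under DCZ, the highest without WT DCZ mouse 6, and from -0.29 to -0.029 under saline.

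The maternally expressed members among the 8 measured were Cdkn1c, an inhibitor of cyclin-dependent kinases that restrains growth, and Grb10, an adaptor that binds and restrains insulin receptors and is expressed from the maternal copy in most tissues outside the brain. Cdkn1c (chr7:143458339-143461050, minus strand) had 19.1, 27.1 and 37.7 CPM as lowest, median and highest values in Th-Cre DCZ libraries and 23.4, 26.9 and 30.2 CPM in Th-Cre saline libraries. The same values were 32.2, 37.7 and 48.9 CPM in WT DCZ libraries and 32.0, 44.6 and 52.5 CPM in WT saline libraries. Under saline every Th-Cre library lay below every WT library, with a difference of -0.71 ± 0.14, and under DCZ the genotypes overlapped, with -0.46 ± 0.14 (log2, SE). Grb10 (chr11:11930508-12038683, minus strand) had 8.44 to 14.7 CPM in Th-Cre DCZ, 8.88 to 16.3 CPM in Th-Cre saline, 10.4 to 19.4 CPM in WT DCZ and 12.2 to 19.9 CPM in WT saline libraries. Its ranges overlapped, with differences of -0.32 ± 0.15 under DCZ and -0.28 ± 0.15 under saline.

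**Figure D1:**
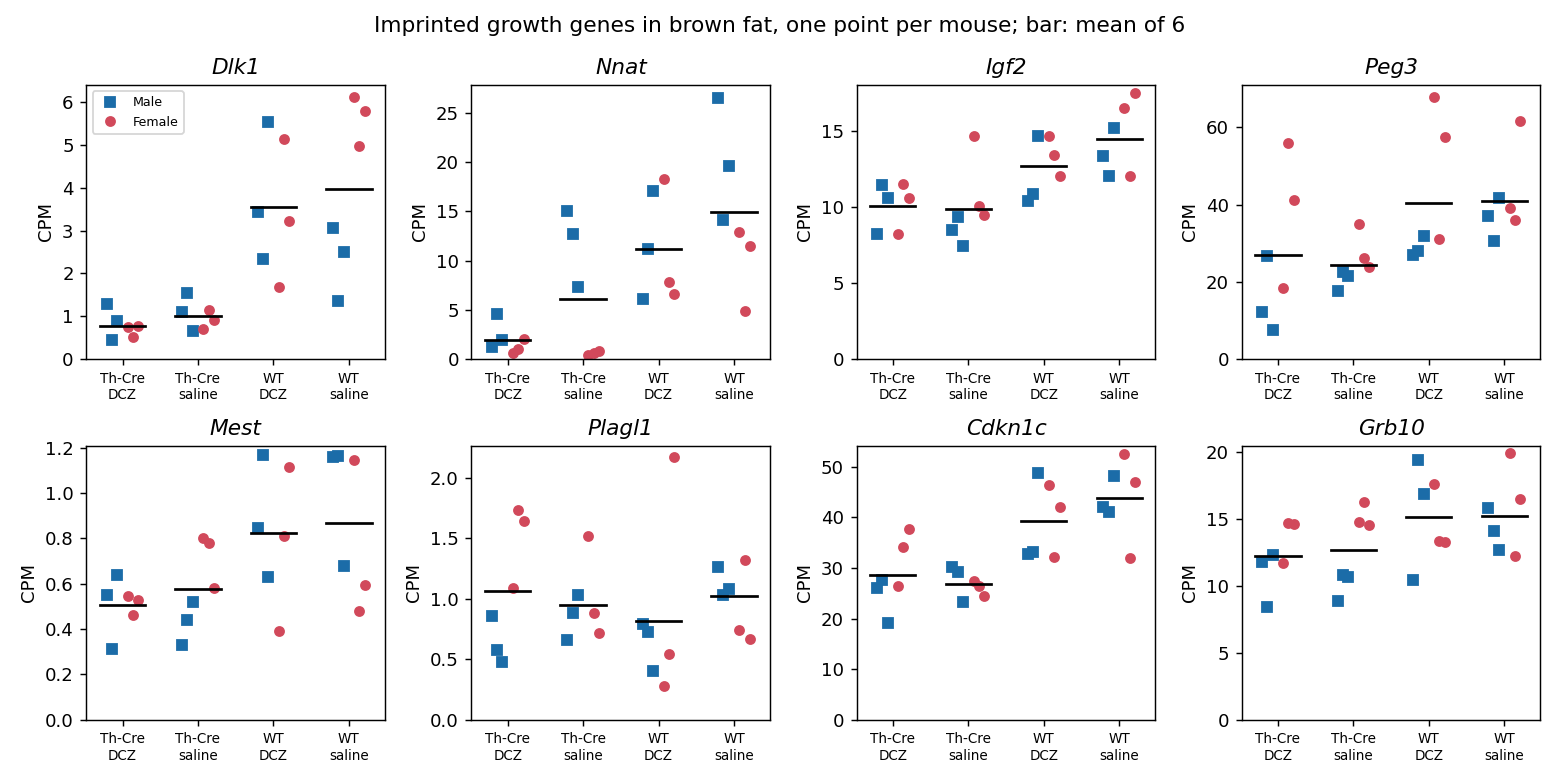
Level in CPM (vertical axes, linear, from 0) of each of the 8 measured genes in each of 24 mice, with males as squares, females as circles and the mean of 6 as a bar. Dlk1 lies at or under 1.54 CPM in all Th-Cre libraries and at or over 1.36 CPM in all WT libraries, and Nnat in Th-Cre females lies at or under 2.05 CPM.

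Across the members, 7 of 8 had a negative genotype difference under DCZ and 8 of 8 under saline, with medians of -0.54 and -0.66, while the median over all tested genes was -0.0025 and -0.010 (log2). Dlk1 and Nnat under DCZ and Cdkn1c under saline were the members without overlap between genotypes. How many of all tested genes had no overlap was not counted, so nothing is read from that. Over all tested genes 13.8% passed the test between genotypes under DCZ and 24.9% under saline, in either direction, and without the 6 libraries with muscle transcripts 3.99% and 0.813% of 13414 tested genes did. Since the members were chosen on this difference, nothing is read from their counts against those shares.

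Some markers of other cells passed between the same groups, where 13.8% of all tested genes passed under DCZ and 24.9% under saline. Several of the counts below are near or under those shares. Endothelial markers were lower in Th-Cre for 2 of 7 genes under DCZ, Kdr and Emcn, and for 5 of 7 under saline (edgeR, Benjamini-Hochberg). Smooth muscle and pericyte markers were lower for 1 of 6 under DCZ, Myh11, and for 4 of 6 under saline. The summed endothelial level was 561 to 719 CPM in Th-Cre and 561 to 1059 CPM in WT libraries, and the smooth muscle and pericyte sum was 414 to 502 CPM in Th-Cre and 434 to 589 CPM in WT libraries. The preadipocyte and fibroblast list had 1 of 10 genes lower under DCZ, Pdgfrb, and 2 of 10 under saline, Pdgfrb and Ly6a. Neuronal markers summed to 2.20 to 4.39 CPM in Th-Cre and 2.54 to 5.55 CPM in WT libraries, with Th at 0 in all WT libraries and at 1 read in all over the Th-Cre libraries. Among brown adipocyte markers Ucp1 and Cox8b were lower and Ppara higher in Th-Cre under both injections, and Otop1 was higher under saline. Schwann cell markers were lower for 1 of 7 under DCZ, S100b, and 1 of 7 under saline, Cdh19, and 0 of 6 macrophage markers passed. Without the 6 libraries with muscle transcripts, 0 of 7 endothelial, 0 of 10 preadipocyte and fibroblast and 0 of 7 Schwann cell markers passed between genotypes under either injection. Of the smooth muscle and pericyte markers Myh11 and Tagln were then lower under saline and 0 of 6 passed under DCZ. Of the brown adipocyte markers Ucp1 and Cox8b were then lower and Ppara higher under DCZ, and Cox8b alone passed under saline, lower. Of the macrophage markers Adgre1 was then higher under DCZ. Of 13414 genes tested without those libraries, 3.99% passed under DCZ and 0.813% under saline. The part of these cell types in the members' differences was not tested.

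Of 13 skeletal muscle markers, 3 were higher in Th-Cre under DCZ, Myh4, Actn3 and Pvalb, and 0 passed under saline. The shares of all tested genes were 13.8% and 24.9%. Without the 6 libraries with muscle transcripts, the Dlk1 difference was -2.05 ± 0.43 under DCZ and -1.74 ± 0.49 under saline, and that of Nnat -2.87 ± 0.54 and -1.27 ± 0.51 (log2, SE).

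Of other imprinted genes, 3 passed under DCZ and 5 under saline. Of 40 listed, 34 have a row and 20 were tested, and the shares of all tested genes that passed were 13.8% under DCZ and 24.9% under saline. Under DCZ 2 of 20 were higher in Th-Cre, Nap1l5 and Zrsr1, and 1 was lower, Gnas. Under saline 4 were higher, Sgce, Nap1l5, Zrsr1 and Copg2, and 1 was lower, Ppp1r9a. Nap1l5 alone of the 20 passed under each injection when the 6 libraries with muscle transcripts were left out. Their median difference was 0.052 under DCZ and 0.057 under saline (log2).

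Nap1l5, a paternally expressed gene of the nucleosome assembly protein family, had 10.4 ± 4.0 CPM in Th-Cre DCZ, 10.1 ± 2.7 in Th-Cre saline, 5.22 ± 1.29 in WT DCZ and 5.26 ± 1.54 in WT saline libraries (SD, n = 6 each). It rose in Th-Cre by 0.98 ± 0.19 under DCZ (adjusted p = 0.0032) and by 0.97 ± 0.20 under saline (adjusted p = 0.0021, log2, SE, edgeR quasi-likelihood test). Zrsr1, a paternally expressed gene for a splicing factor-related protein, rose by 0.38 ± 0.08 under both injections, with adjusted p = 0.0056 under DCZ and 0.0033 under saline by the same edgeR test. Gnas encodes the G protein subunit that couples beta-adrenergic receptors to adenylyl cyclase. It had 2076 ± 649 CPM in Th-Cre DCZ and 3215 ± 231 CPM in WT DCZ libraries, a difference of -0.65 ± 0.14 (edgeR adjusted p = 0.0053), and 2394 ± 437 CPM in Th-Cre saline and 3049 ± 208 CPM in WT saline libraries, -0.36 ± 0.14 (edgeR adjusted p = 0.059). Without the 6 libraries with muscle transcripts only Nap1l5 passed, under either injection.

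**Figure D2:**
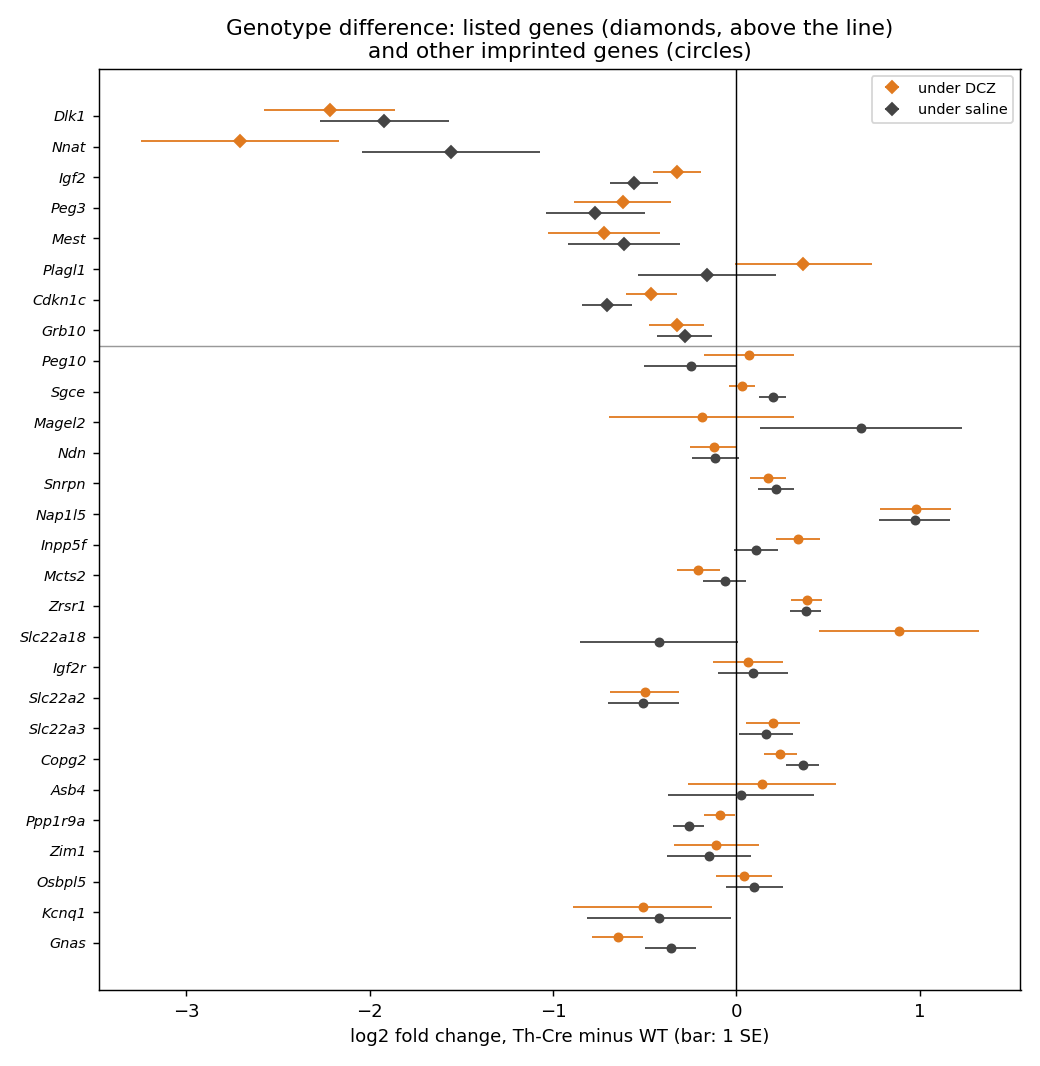
Log2 fold change, Th-Cre minus WT, with 1 SE as bars, of the 8 measured members (diamonds, above the grey line) and of 20 other imprinted genes (circles), under DCZ and under saline. Dlk1 and Nnat lie between -2.71 and -1.56, while the other imprinted genes lie on both sides of 0, with Nap1l5 near 0.98 under both injections.

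Genes next to the members were looked at by cluster. Of 23 listed neighbours 11 were tested, and none passed between genotypes under DCZ. Under saline Copg2, which overlaps Mest by 912 bases on the other strand and encodes a coatomer subunit, rose by 0.36 ± 0.09 in Th-Cre (edgeR adjusted p = 0.0062), where 24.9% of all tested genes passed. Nap1l4, a histone chaperone gene near Cdkn1c, rose by 0.24 ± 0.06 (edgeR adjusted p = 0.0056). Without the 6 libraries with muscle transcripts neither passed, with 0.33 ± 0.12 for Copg2 (edgeR adjusted p = 0.11) and 0.18 ± 0.08 for Nap1l4 (edgeR adjusted p = 0.16). Begain, near Dlk1, had 0.824 ± 0.408 CPM in Th-Cre DCZ and 1.47 ± 0.71 CPM in WT DCZ libraries, and its difference did not pass (edgeR adjusted p = 0.082). Blcap, Tnnt3, Lsp1, Mrpl23, Zim1, Phactr2, Kcnq1 and Slc22a18 were tested too and did not pass under either injection, with edgeR adjusted p-values of 0.11 to 0.84 under saline. Rtl1, in the Dlk1 cluster, had no read, and Dio3, at its far end, had 14 reads in all. Ins2, Th, Usp29, Klf14, Phlda2, Ddc and Cobl had too few reads to be tested, and Rian, Mirg and Kcnq1ot1 were not analysed here.

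Lists of related pathways are read against the 13.8% of all tested genes that passed under DCZ and the 24.9% under saline. Of 13 tested insulin-like growth factor genes, 2 rose in Th-Cre under DCZ, Irs2 and Igf2bp2, and under saline the same 2 rose while Igfbp7 fell. Irs2, an adaptor of insulin receptor signalling, had 136 ± 58 CPM in Th-Cre DCZ and 44.2 ± 12.9 CPM in WT DCZ libraries, a log2 difference of 1.59 (edgeR adjusted p = 0.0022). Of 16 tested Notch pathway genes, 3 rose under DCZ, Notch2, Jag1 and Rbpj, and under saline Rbpj rose while the ligands Jag2 and Dll1 fell. Of 12 tested regulators of adipogenesis none passed under DCZ, and under saline Srebf1 rose while Gata2 and Klf4 fell. Without the 6 libraries with muscle transcripts, Irs2 and Jag1 were the genes of these 3 lists that passed under DCZ, both higher in Th-Cre, and none passed under saline.

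DCZ was compared with saline within each genotype, a contrast that the rule for the members did not use. In Th-Cre mice 0 of 8 members passed edgeR's quasi-likelihood test, where 0.0229% of all tested genes did, and at an unadjusted p under 0.05 it was Nnat alone among the members and 745 genes in all. Nnat had a difference of -1.39 ± 0.56 in Th-Cre mice (log2, SE, adjusted p = 0.73) and Dlk1 one of -0.41 ± 0.40 (adjusted p = 0.99). In WT mice 0 of 8 passed, where 0.00762% of all tested genes did, with Nnat at -0.24 ± 0.46 (edgeR adjusted p = 0.90) and Dlk1 at -0.11 ± 0.31 (edgeR adjusted p = 0.93). The DCZ effects in Th-Cre and WT mice differed for 0 of 8 members, where 0.00762% of all tested genes passed, and for Nnat by -1.15 ± 0.71 (edgeR adjusted p = 0.73). At an unadjusted p under 0.05, 0 of 8 members passed in WT mice and 0 of 8 for the difference of the effects, with 1137 and 980 genes in all. Limma-voom also called 0 of 8 members in each of these 3 comparisons. DESeq2 called 0 of 8 in Th-Cre mice and 0 of 8 for the difference of the effects. In WT mice DESeq2 gave the members no adjusted p, so it could not call any of them.

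Among Th-Cre males, Nnat was lower in every DCZ library (1.23 to 4.55 CPM) than in any saline library (7.31 to 15 CPM). How many of all tested genes were apart in this way was not counted, so nothing is read from that. The highest library of each group, DN2091 with DCZ and DN2087 with saline, held muscle transcripts. The Nnat difference in these males was -2.12 ± 0.50 (log2, SE, n = 3 each). Its unadjusted p was 0.00038 and its adjusted p 0.24 by edgeR, so it did not pass, and 0.00762% of all tested genes did. Among Th-Cre females the groups were 0.612 to 2.05 CPM with DCZ and 0.446 to 0.843 CPM with saline, which overlap, and the difference was 0.94 ± 0.77 (edgeR adjusted p = 0.92), where 0.0152% of all tested genes passed. It was 0.36 without Th-Cre DCZ mouse DN2207. The effects in males and females differed by -3.06 ± 0.91 (edgeR adjusted p = 0.41), where 0% of tested genes passed. These within-sex comparisons were added after the values had been seen.

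Males and females were compared over all groups, and here 2 of 8 members passed, where 8.07% of all tested genes did. Nnat was higher in males, 11.4 ± 7.6 CPM in males and 5.63 ± 5.94 CPM in females (SD, n = 12 each), a log2 difference of 1.28 ± 0.37 (SE, edgeR adjusted p = 0.031). Peg3 was lower in males, 25.3 ± 9.8 CPM in males and 41.1 ± 16.1 CPM in females, with -0.73 ± 0.19 (edgeR adjusted p = 0.019). Of the other 6, Grb10 had -0.26 ± 0.11 (edgeR adjusted p = 0.14) and Igf2 -0.19 ± 0.09 (edgeR adjusted p = 0.23), and Dlk1, Mest, Plagl1 and Cdkn1c had adjusted p-values of 0.35 to 0.99.

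Peg3 had 12.1, 26.8 and 7.51 CPM in males and 18.4, 56.0 and 41.2 CPM in females of the Th-Cre DCZ group. In the Th-Cre saline group it had 17.5, 22.6 and 21.5 CPM in males and 35.0, 26.2 and 23.7 CPM in females. In the WT DCZ group it had 26.9, 27.9 and 31.8 CPM in males and 68.0, 31.0 and 57.5 CPM in females. In the WT saline group males had 37.1, 30.5 and 41.8 CPM and females 39.2, 36.1 and 61.5 CPM. The mean was lower in males in each of the 4 groups, and the sexes were apart without overlap only in the Th-Cre saline group. Peg3 passed whichever single library was left out, and also without the 6 libraries with muscle transcripts, with -0.93 ± 0.23 (edgeR adjusted p = 0.021). Without those libraries 6.23% of 13414 tested genes passed.

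The difference of Nnat between sexes was larger in Th-Cre than in WT mice as fitted, but the test of that difference did not pass. Within Th-Cre mice males had 7.11 ± 5.68 CPM and females 0.935 ± 0.584 CPM (SD, n = 6 each), with 2.62 ± 0.44 (log2, SE, edgeR adjusted p = 0.0023), and Nnat was the 1 member of 8 to pass, where 1.61% of all tested genes did. Within WT mice males had 15.8 ± 7.1 CPM and females 10.3 ± 4.9 CPM, with 0.56 ± 0.32 (edgeR adjusted p = 0.40), and 0 of 8 members passed, where 2.50% of all tested genes did. The sex differences in the 2 genotypes differed by 2.07 ± 0.55 with an unadjusted p of 0.0011 and an adjusted p of 0.38 by edgeR, where 0% of all tested genes passed.

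Muscle transcripts moved with sex: 9 of 13 skeletal muscle markers were lower in males, and their summed level was 1.29 to 93.1 CPM in Th-Cre males and 1.30 to 1483 CPM in Th-Cre females. Without the 6 libraries that hold them, the Nnat difference between sexes was 0.79 ± 0.36 over all groups (edgeR adjusted p = 0.20), so it did not pass. In Th-Cre mice that difference was then 1.76 ± 0.62, with only 1 saline female left, too few for a call. In the Th-Cre saline group the libraries without muscle transcripts were 2 males with 7.31 and 12.7 CPM of Nnat and 1 female with 0.843 CPM. Over all groups the Nnat call was also lost without any 1 of 6 single libraries, WT saline mouse 2 or 11, Th-Cre saline mouse DN2201, DN2094 or DN2086, or Th-Cre DCZ mouse DN2091, with edgeR adjusted p-values of 0.0507 to 0.0619. In Th-Cre mice it was kept whichever single library was left out, at 2.22 to 2.91.

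**Figure D3:**
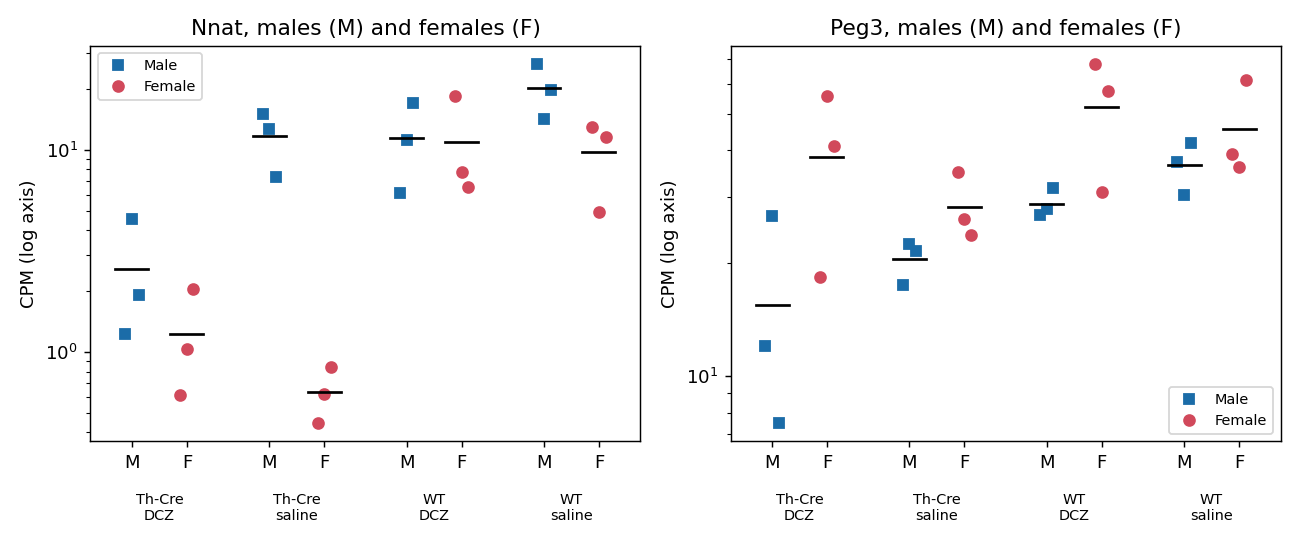
Level of Nnat (left) and Peg3 (right) in CPM on a log axis for 3 males (squares) and 3 females (circles) of each group, with the mean as a bar. The 3 Th-Cre saline males have 7.31 to 15 CPM of Nnat and the 3 Th-Cre saline females 0.446 to 0.843 CPM, and mean Peg3 is lower in males in each group.

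**Figure D4:**
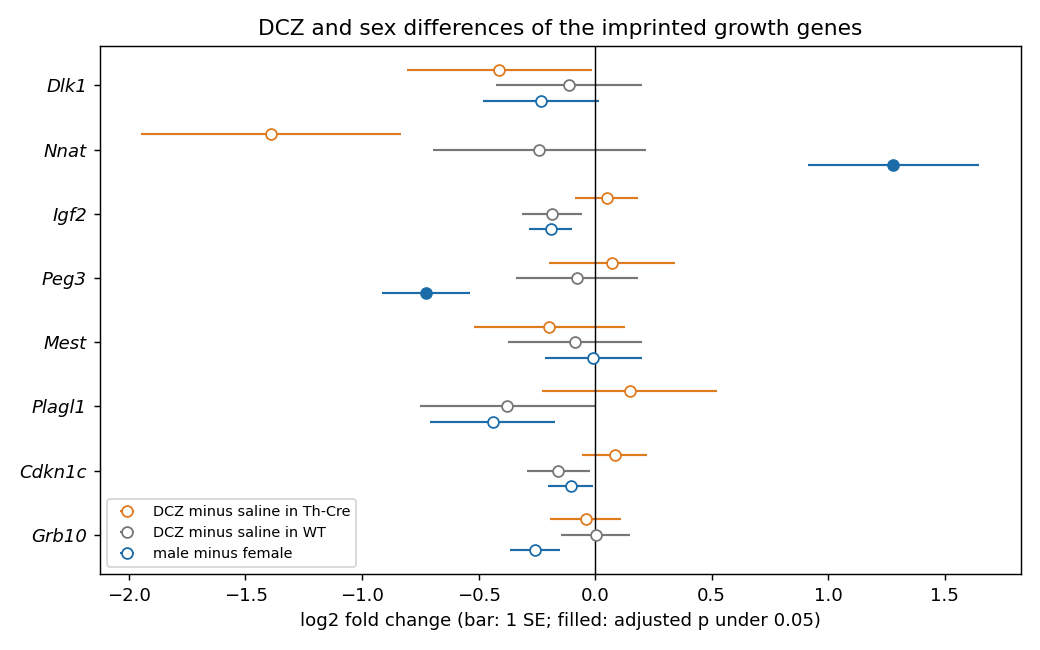
Log2 fold change with 1 SE of the 8 measured genes for DCZ minus saline in Th-Cre mice, DCZ minus saline in WT mice and male minus female, with filled points at an adjusted p under 0.05. Only the male minus female differences of Nnat (1.28) and Peg3 (-0.73) are filled.

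Some other imprinted genes differed by sex, where 8.07% of all tested genes passed. Of 20 tested, 4 were higher in males, Snrpn (0.29 ± 0.07), Inpp5f (0.32 ± 0.08), Slc22a2 (0.59 ± 0.13) and Slc22a3 (0.37 ± 0.10), and Nap1l5 was lower in males (-0.44 ± 0.14), as log2 differences with SE and edgeR adjusted p-values of 0.0077 to 0.045. Blcap, the host of Nnat, was higher in males by 0.23 ± 0.06 (edgeR adjusted p = 0.018), the same sign as Nnat, and by 0.22 ± 0.07 without the 6 libraries with muscle transcripts (edgeR adjusted p = 0.072). Of 13 insulin-like growth factor genes 4 were lower in males, Insr, Irs1, Igfbp3 and Igfbp7. With the 6 muscle-bearing libraries left out, Snrpn, Slc22a2, Nap1l5, Insr, Irs1 and Igfbp3 of these passed. These genes were named after their values had been seen.

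Levels of different genes were set side by side per kilobase of the longest principal transcript. In Th-Cre saline libraries the mean was 14.1 CPM per kb for Cdkn1c, 5.07 for Nnat, 2.81 for Peg3, 2.50 for Grb10, 2.50 for Igf2, 0.225 for Mest, 0.217 for Dlk1 and 0.180 for Plagl1. In WT saline libraries it was 23.1 CPM per kb for Cdkn1c, 12.3 for Nnat, 4.72 for Peg3, 3.65 for Igf2, 3.01 for Grb10, 0.853 for Dlk1, 0.340 for Mest and 0.194 for Plagl1. Cdkn1c thus had the highest mean of the 8 on this scale in both groups. Neighbours in each order overlapped in their ranges, except Igf2 and Mest in Th-Cre saline and Grb10 and Dlk1 in WT saline libraries. With the shortest principal transcript, Igf2 would be at 15.3 CPM per kb in Th-Cre saline and 22.3 in WT saline libraries and Dlk1 at 0.592 and 2.33, so their place in the order depends on the transcript.

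After the group means and the sex difference were removed, correlations between members over the 24 libraries had both signs. The correlation of Dlk1 with Nnat was 0.03. The largest between members was 0.71, for Peg3 with Cdkn1c, and the lowest -0.54, for Nnat with Mest. Cdkn1c also had 0.54 with Nnat. These are descriptions without a test over libraries that share depth and tissue composition. The genes with the pattern most like that of Dlk1 were Adm (r = 0.75), Mdm1 (0.71), Zfp790 (0.70), AC149090.1 (0.69) and Ddx27 (0.69). For Nnat they included Acot8 (0.76), Polr2h (0.75), Jtb (0.74) and Grwd1 (0.74).

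Correlations of member pairs were computed for 6 sets of libraries, and none passed a permutation test after adjustment over the 6. Dlk1 and Nnat had r = -0.33 and rho = -0.31 over 12 WT libraries (permutation p = 0.29 and 0.33, adjusted p = 0.87 and 0.92, r = -0.20 without the 2 libraries farthest from the median). Over 12 Th-Cre libraries they had r = 0.19 and rho = 0.15 (permutation p = 0.54 and 0.65, adjusted p = 0.88 and 0.92, r = 0.097 without the 2 farthest libraries). Since mean Nnat differed between the sexes there, the pair was also taken within sex, with r = 0.091 in 6 males (exact permutation p = 0.86) and r = -0.22 in 6 females (exact permutation p = 0.67). Mest and Peg3 had r = -0.049 over 12 Th-Cre libraries (permutation p = 0.88) and r = -0.43 over 12 WT libraries (permutation p = 0.16, rho = -0.52, permutation p = 0.084, adjusted p = 0.51), where r was -0.23 without the 2 farthest libraries.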

How the data were processed

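RNA was poly-A selected and sequenced from brown fat of 24 mice, per the labels. Per the submitters' processing notes, kallisto 0.44.0 and GRCm38.p6 were used. Neither the transcript set, nor how transcripts were summed to genes, nor whether strand was used is stated in those notes. The authors deposited whole-number estimated counts per gene symbol, and these counts were tested as deposited. Tables normalized separately in each genotype were not used.

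A filter on low counts (filterByExpr by group, minimum count 10) left 13129 genes with 99.9% of reads. Library sizes were scaled by TMM, and CPM are on those sizes. Quasi-likelihood models of edgeR 4.0.16, run in R 4.3.3, were fitted to all 24 libraries with 4 group means and a sex term, or with 8 means of sex within group for comparisons within a sex or genotype. P-values were adjusted by Benjamini-Hochberg over all tested genes at a threshold of 0.05. The steps were tested on simulated data. P-values rest on the spread between single mice within groups. Between genotypes they cannot separate genotype from strain background and library set. Libraries with a mean log2 CPM over 1 for 13 muscle markers were named as holding muscle transcripts. Alternatives were DESeq2 1.42.0, limma-voom (limma 3.58.1), RLE factors, no filter, a prior count of 0.5, no sex term, single genotypes, and leaving out each library or the muscle libraries. Correlations used log2 CPM with a prior count of 2 and 100000 resamples for 12 libraries. Gene positions are from GENCODE M21 and promoters from RefSeq.

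The members and all gene lists were chosen with earlier results of these data known. Named were all members, tested cluster neighbours and other imprinted genes that passed between genotypes, up to 4 genes of each other list with the smallest p under saline, and 5 genes of most similar pattern for Dlk1 and for Nnat, of which 1 is not reported here.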

Additional observations from a re-analysis of the deposited data

Results flagged for a closer look

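Of 32 sets of 6 libraries (8 genes in 4 groups), 4 had a highest library that stood apart from the other 5 by Dixon's criterion. For draws from 1 normal distribution that happens in about 1 in 20 sets. The CPM were not transformed and each set held both sexes, so that rate need not hold here. Nnat had 4.55 CPM in 1 Th-Cre DCZ male (DN2091), a library with muscle transcripts, and the next value was 2.05 CPM. Igf2 had 14.7 CPM in 1 Th-Cre saline female (DN2086), also with muscle transcripts, and the next value was 10.1 CPM. Peg3 had 61.5 CPM in 1 WT saline female (mouse 8), and the next value was 41.8 CPM. Plagl1 had 2.17 CPM in 1 WT DCZ female (mouse 6), and the next value was 0.788 CPM.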

How the results depend on the processing

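No paired analysis was possible because each mouse number in the labels belongs to 1 mouse. Of 1934 recomputed values, 1848 were labelled as unchanged. For tested differences and correlations that meant the same direction and the same side of the threshold. For counts of called genes it meant a similar number, whichever genes these were. For the members' differences between genotypes it meant a shift smaller than the SD within groups. A value without an adjusted p was taken as not passing, as for the members with DESeq2 in WT mice. Fits with single libraries left out share nearly all their data with the main fit, so the total does not count independent checks. Members called between males and females were 2 as reported, 1 with limma-voom and 1 without the libraries with muscle transcripts (Peg3 in both), and 1 to 3 when single libraries were left out. Of all tested genes, 1031 of 13129 passed with limma-voom and 836 of 13414 (6.23%) without the libraries with muscle transcripts. Within Th-Cre mice 1 was called as reported (Nnat) and 1 to 2 when single libraries were left out. Without the muscle libraries only 1 Th-Cre saline female was left, too few for a call within Th-Cre mice. Other imprinted genes called between genotypes under DCZ were 3 as reported, 1 without the muscle libraries and 3 to 5 with single libraries left out. Under saline they were 5 as reported, 3 with no filter on low counts, 1 without the muscle libraries and 3 to 7 with single libraries left out. Values that changed sign were, for DCZ in Th-Cre mice, Peg3 (-0.030 with limma-voom, -0.035 without muscle libraries), Mest (0.11) and Grb10 (0.13) without muscle libraries. For DCZ in WT mice they were Grb10 (-0.027 with limma-voom, -0.0068 with no sex term, -0.0044 from WT libraries alone), Dlk1 (0.030) and Mest (0.063) without muscle libraries. The difference of the DCZ effects changed sign without muscle libraries for Mest (0.049) and Grb10 (0.056), and male minus female for Mest (0.029 with limma-voom, 0.33 without muscle libraries). With single libraries left out, the ranges that crossed 0 were, for DCZ in Th-Cre mice, Peg3 -0.17 to 0.24, Grb10 -0.11 to 0.026, Igf2 -0.024 to 0.16, Plagl1 -0.0053 to 0.27 and Cdkn1c -0.0036 to 0.17. For DCZ in WT mice they were Dlk1 -0.31 to 0.078, Peg3 -0.19 to 0.032, Mest -0.22 to 0.062 and Grb10 -0.12 to 0.080. For the difference of the DCZ effects they were Peg3 -0.10 to 0.31, Mest -0.26 to 0.031 and Grb10 -0.12 to 0.080, and for male minus female Mest -0.10 to 0.054. The cause of these changes was not tested. Single libraries also moved, without crossing 0, Nnat for DCZ in WT mice (-0.69 to -0.0014) and in Th-Cre females (0.36 to 1.24). Grb10 passed between males and females only without WT DCZ mouse 3 (edgeR adjusted p = 0.047). Dlk1, Mest and Plagl1 had as few as 8, 6 and 5 reads in a library, which limits their precision.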
